A study of Mus musculus with 2 samples.

Results

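Cluster 16 was a set of 112 aortic leukocytes, of 7613 cells in all, whose transcripts were rich in Il13 and Il1rl1, genes of group 2 innate lymphoid cells (ILC2). Its members were the cells that the deposited cell table assigned to cluster 16, with no further selection, and 76 of them came from the nt-LNA library and 36 from the saline library. The deposited cell type name was T cells. That name went against the markers: 10 of 12 T cell markers were over 2-fold lower in cluster 16 than in the mean of the other clusters, where 26.4% of all genes that passed a filter on low values were, and 2 of the 10, Cd5 and Cd6, had no UMI there. Of the 10 genes with the largest ratio to the other clusters, 4 were on a list of 15 ILC2 markers, and none was on any of the 15 other marker lists, so the cluster is called ILC2-like here. Il13 and Il1rl1 are among these 4, and the lists were chosen with earlier results of these data known. The count therefore describes the cluster and is no test of the name. All 10 genes were next highest in cluster 11, and the share of all genes for which this held was not computed.

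The study compared the immune cells of the atherosclerotic aorta between mice given nt-LNA and mice given saline. LNA is the usual short form of locked nucleic acid, whose modified sugar stabilises antisense oligonucleotides. Every mouse was Apoe-/-, which lacks apolipoprotein E and accumulates cholesterol-rich lipoproteins, and ate a western diet for 4 weeks. The nt-LNA mice received 30 mg/kg nt-LNA weekly and the saline mice received saline on the same schedule. Live CD45+/CD3- cells were sorted after digestion of the arch and the thoracic aorta, a gate meant to leave out leukocytes with surface CD3, the signalling chains of the T cell receptor. There was 1 droplet-based 3' RNA library per treatment, with 4871 cells from nt-LNA mice and 2742 from saline mice. The sources used here give neither the number of mice behind each library nor their age and sex. The titles call the cells macrophages, but in cluster 16 the 12 macrophage markers summed to 73 unique molecular identifiers (UMIs, counts of distinct transcripts) and 5 of them, Adgre1, Fcgr1, Lyve1, Mertk and Trem2, were at 0. All 10 that passed the filter were over 2-fold lower there than in the mean of the other clusters, against 26.4% of all genes.

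ILC2 are lymphocytes without a rearranged antigen receptor. They respond to alarm signals from damaged tissue, above all interleukin 33, which binds the receptor ST2 encoded by Il1rl1, and they answer with interleukins 5 and 13 and with amphiregulin. In mice they have been described in and around the aorta, and interleukins 5 and 13 have been linked to smaller or more stable plaques in mouse models.

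The counts were deposited as sums over the cells of each cluster, with both libraries pooled, so expression cannot be compared between treatments here. Values are given as CPM, the UMIs of a gene scaled to the total of its cluster. Cluster 16 had 212515 UMIs, the lowest total of the 20 clusters, whose highest was 12985745, so 1 UMI was worth 4.71 CPM. For a bound, a gene at 0 UMIs was set to 14.1 CPM (3 counts), while its exact 95% interval reaches 17.4 CPM. Cells of cluster 16 held a mean of 1897 UMIs, the second lowest of all clusters, against 9222 over all cells. Intervals are exact 95% intervals and cover counting error only. Because the clustering used the expression of these same cells, the genes below describe the cluster and no test was made. No cell barcode of cluster 16 occurred in both libraries, against 2 shared barcodes in the whole series.

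Il13 separated cluster 16 most sharply. It had 54 UMIs and 254 CPM (191 to 332) in cluster 16, against 31.7 CPM in cluster 11 and a mean of 2.26 CPM over the other 19 clusters, 10 of which had none. Il1rl1 had 1294 CPM (1146 to 1456) in cluster 16, against 521 CPM in cluster 11, a median of 5.03 CPM over the other 19 clusters and 0 in 2 of them. Both genes were highest in clusters 16 and 11. Elsewhere Il1rl1 reached at most 35.5 CPM, in cluster 0 with 461 UMIs, and Il13 at most 6.19 CPM, in cluster 6 with 66 UMIs. Fosb, a subunit of the AP-1 transcription factor that is switched on within minutes of cell stimulation, had 3082 CPM (2851 to 3327) in cluster 16, against 1811 CPM in cluster 11, and the next highest was cluster 8 with 393 CPM. H2-Q7, a class Ib MHC gene, was spread more widely, with 1779 CPM (1604 to 1967) in cluster 16 and a median of 198 CPM over the other 19 clusters. It had 1019 CPM in cluster 3, 1000 CPM in cluster 18, 894 CPM in cluster 2 and 731 CPM in cluster 11. No stretch of 90 bases in the last 500 bases of its longest annotated transcript occurs in a transcript of another gene, so reads of that length from there can be told from its neighbours of the same family.

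**Figure D1:**
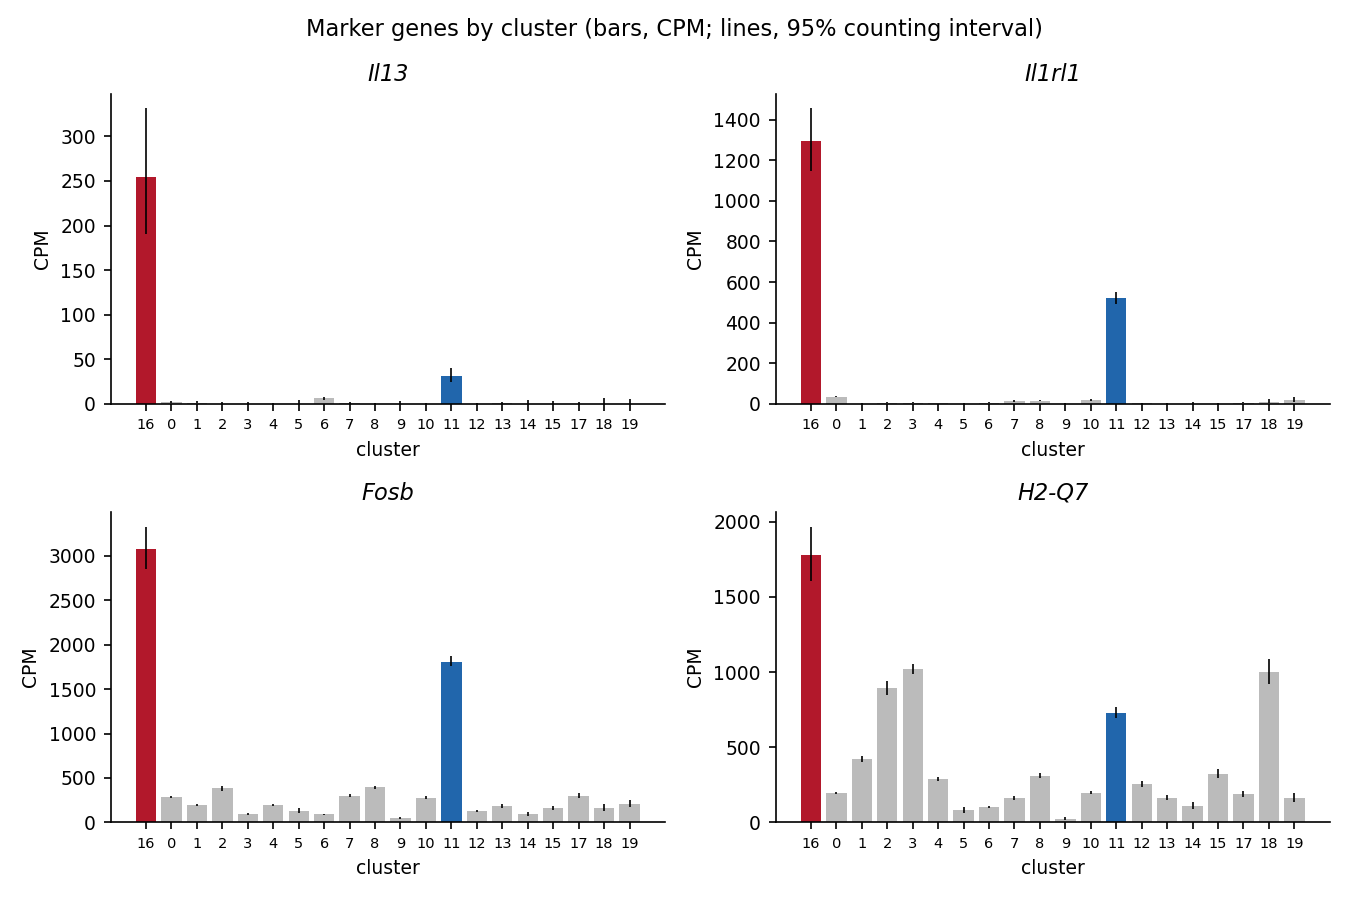
CPM of Il13, Il1rl1, Fosb and H2-Q7 in each of the 20 clusters, with both libraries pooled; bars are CPM, lines are exact 95% counting intervals, red marks cluster 16 and blue cluster 11. Il13 and Il1rl1 stand out in clusters 16 (254 and 1294 CPM) and 11 (31.7 and 521 CPM), while H2-Q7 is also high in clusters 3, 18 and 2.

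The 15 genes with the largest ratio to the mean of the other clusters, among the 1776 genes with at least 20 UMIs in cluster 16, included Il13 (a ratio of 112), Stab2 (80.6), Olfr1259 (53.9), Lif (50.6), Cntn1 (47.3), Ccr8 (42.4), Calca (40.6), Il1rl1 (37.1), Trdv4 (35.3), Ccl1 (34.9), Cxcr6 (32.7), Ptpn13 (32.6), Slc7a8 (32.5) and Pcsk1 (31.6). All 15 were highest in cluster 16 and next highest in cluster 11. Of the 50 leading genes, 49 were highest in cluster 16 and for 48 the highest other cluster was cluster 11. Of all 1776 genes, 464 were highest in cluster 16, and ranking by this ratio favours such genes. The share of all 1776 genes next highest in cluster 11 was not computed. Across 8305 genes with a mean of at least 10 CPM over the clusters, the log2 CPM profile of cluster 16 had a Spearman correlation of 0.820 with cluster 11, 0.719 with cluster 2, 0.710 with cluster 3 and 0.552 with cluster 6, the least like it. These are correlations across genes, which are not replicates, and all clusters share the same 2 libraries.

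The secreted signals of cluster 16 were led by Areg, Csf2, Lif, Ccl1 and Calca beside Il13. Of 22 type 2 and related cytokines, 10 passed the filter on low values, 2 of them only through their level in cluster 16. Of the 10, 7 were over 2-fold higher in cluster 16 than in the mean of the other clusters, where 13.8% of all genes that passed were, and 1 was over 2-fold lower, where 26.4% of all genes were. The median log2 ratio (with 1 CPM added) was 3.79 over the 10, against -0.16 over all 8305 genes. With the filter applied to the other clusters alone, 9 passed, 5 were over 2-fold higher and 2 over 2-fold lower, and the median was 2.30. Of all genes that passed that filter, 13.1% were higher and 27.2% lower. Among those that were higher, Areg, which encodes the epithelial growth factor amphiregulin, had 2249 CPM (2052 to 2460) in cluster 16, against 1461 CPM in cluster 11 and a median of 16.03 CPM over the other clusters. Csf2, the growth factor GM-CSF, had 875 CPM (754 to 1010) in cluster 16, against 577 CPM in cluster 11. Lif, a cytokine of the interleukin 6 family, had 734 CPM (623 to 859) in cluster 16, against 207 CPM in cluster 11, a ratio of 3.55 (2.94 to 4.27). Calca, which encodes the neuropeptide CGRP, had 559.96 CPM (464 to 670.1) in cluster 16, against 214 CPM in cluster 11. Ccl1, the ligand of the chemokine receptor Ccr8 and not on the list, had 649 CPM (546 to 767) in cluster 16, against 312 CPM in cluster 11. All 5 were thus higher in cluster 16 than in cluster 11, with intervals above the cluster 11 values.

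Il5 did not follow Il13. It had 11 UMIs and 51.8 CPM (25.8 to 92.6) in cluster 16, against 175 UMIs and 79.4 CPM in cluster 11, and the ratio of their CPM was 0.652 (0.320 to 1.20). The ratio of Il13 to Il5 UMIs was 4.91 (2.54 to 10.4) in cluster 16 and 0.400 (0.299 to 0.531) in cluster 11, so the intervals did not meet. The total depth of a cluster cancels in this ratio, but a loss of UMIs that differs between genes would not. Whether Il13 and Il5 UMIs were lost to unlike degrees was not tested. For comparison, the ratio of Il1rl1 to Il7r UMIs was 0.498 (0.430 to 0.577) in cluster 16 and 0.450 (0.419 to 0.482) in cluster 11, where the intervals overlapped. Il17a, the signature cytokine of type 3 lymphocytes, had no UMI in cluster 16 and 53.1 CPM in cluster 11. Set to 3 counts in cluster 16, it was 3.76-fold lower there than in cluster 11. Il4 had 1 UMI, and Il9, Il10, Il17f, Il21 and Ifng had none. Ifng had 344 CPM in cluster 3 and was 24.3-fold lower in cluster 16 when set to 3 counts. Il2 had 47.1 CPM in cluster 16, against 52.6 CPM in cluster 11, and Tnfsf11, the ligand RANKL, had 122 CPM and 104 CPM in clusters 16 and 11.

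The promoters of the 3 genes that define the type 2 signal here are shown because Gata3, the lineage factor described below, binds GATA motifs. Each sequence is the 250 bases before a RefSeq start on the coding strand, in the mouse build GRCm38.p6, which is not the build named in the submitters' notes. Il13 and Il5 lie on chromosome 11 and Il1rl1, which has 2 annotated starts, on chromosome 1. Capitals mark a match to GATA with an A or T before it and an A or G after it, as in AGATAA, on either strand.

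Il13, chr11:53634703-53634952, minus strand: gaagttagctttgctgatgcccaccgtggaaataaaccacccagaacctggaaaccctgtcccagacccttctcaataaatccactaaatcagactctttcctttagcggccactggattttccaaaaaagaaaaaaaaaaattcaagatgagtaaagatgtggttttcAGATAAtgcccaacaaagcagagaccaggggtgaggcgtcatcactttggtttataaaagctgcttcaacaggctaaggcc

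Il5, chr11:53720544-53720793, plus strand: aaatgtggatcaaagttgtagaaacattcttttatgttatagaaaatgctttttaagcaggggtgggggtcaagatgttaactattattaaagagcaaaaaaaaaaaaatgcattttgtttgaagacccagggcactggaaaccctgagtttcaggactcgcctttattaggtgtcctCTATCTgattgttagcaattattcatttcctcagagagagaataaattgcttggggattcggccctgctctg

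Il1rl1, upstream start, chr1:40429320-40429569, plus strand: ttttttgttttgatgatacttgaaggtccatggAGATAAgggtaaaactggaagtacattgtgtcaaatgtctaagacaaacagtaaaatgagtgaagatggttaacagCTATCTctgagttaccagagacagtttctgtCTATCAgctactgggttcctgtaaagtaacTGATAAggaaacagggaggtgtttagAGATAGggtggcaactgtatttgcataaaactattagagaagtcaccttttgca

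Il1rl1, downstream start, chr1:40439379-40439628, plus strand: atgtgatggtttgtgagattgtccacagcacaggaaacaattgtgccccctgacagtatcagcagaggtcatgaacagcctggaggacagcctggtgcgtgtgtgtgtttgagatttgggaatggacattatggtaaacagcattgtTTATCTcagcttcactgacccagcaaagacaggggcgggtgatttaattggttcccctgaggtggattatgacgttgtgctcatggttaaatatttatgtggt

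The Il13, Il5 and downstream Il1rl1 windows each held 1 match, and the upstream Il1rl1 window held 5. Of 32851 windows of the same length before RefSeq starts, 26.5% held at least 1 match and 1.35% at least 3. A match describes the letters only. The same windows held no AP-1 motif (TGANTCA, which reads the same on both strands), present in 6.75% of all windows, and the Fosb window held neither motif.

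Most receptors of the ILC2 list were high. Of 37 members 30 passed the filter, 2 of them only through cluster 16, and 22 were over 2-fold higher and 3 over 2-fold lower than in the other clusters, with a median log2 ratio of 2.70. With the filter applied to the other clusters alone, 20 of 28 were over 2-fold higher and 3 over 2-fold lower, with a median of 2.50. The shares over all genes were 13.8% and 26.4% with the main filter, and 13.1% and 27.2% with that on the other clusters. Il7r, the interleukin 7 receptor on which lymphocyte survival depends, had 2597 CPM (2385 to 2823) in cluster 16, against 1158 CPM in cluster 11 and a median of 24.9 CPM over the other clusters. Il2ra, the high-affinity chain of the interleukin 2 receptor, had 805 CPM in cluster 16, against 382 CPM in cluster 11. Il17rb, the receptor of interleukin 25, had 32 UMIs and 151 CPM (103 to 213) in cluster 16, against 39.9 CPM in cluster 11, a ratio of 3.77 (2.44 to 5.71). Kit, the stem cell factor receptor, had 475 CPM (387 to 577) in cluster 16, against 164 CPM in cluster 11. The costimulatory receptors Icos and Tnfrsf18 had 325 and 847 CPM in cluster 16, against 198 and 438 CPM in cluster 11. Cxcr6 and Ccr8, chemokine receptors of tissue lymphocytes, had 828 and 132 CPM in cluster 16, against 399 and 48.5 CPM in cluster 11. Cd69, which holds lymphocytes in tissue, had 1439.9 CPM in cluster 16, against 853 CPM in cluster 11. S1pr1, the exit receptor it opposes, had 7 UMIs in cluster 16. The log2 ratio of S1pr1 was -1.12 to the other clusters but 0.52 to the mean of clusters 3 and 11.

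Other receptors, and the enzyme Arg1, varied more against cluster 11. Klrg1, an inhibitory receptor of mature ILC2, had 193 CPM (138 to 262) in cluster 16, against 189 CPM in cluster 11. Arg1, the arginine-degrading enzyme of ILC2, had 287 CPM (219.6 to 369) in cluster 16, against 456 CPM in cluster 11. Pdcd1, the inhibitory receptor PD-1, had 141 CPM (95.2 to 202) in cluster 16, against 52.6 CPM in cluster 11. Nmur1, the neuromedin U receptor, had 1 UMI and Ptgdr2, the prostaglandin D2 receptor CRTH2, had none. Ltb4r1, the leukotriene B4 receptor, is on none of the lists. It had 1172 CPM (1031 to 1327) in cluster 16, 438 CPM in cluster 11 and a median of 10.5 CPM over the other clusters.

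Transcription factors were more mixed. Of 31 members 27 passed, and 10 were over 2-fold higher and 6 over 2-fold lower in cluster 16 than in the other clusters, with a median log2 ratio of 0.53. Over all genes 13.8% were higher and 26.4% lower, so the share of the list that was lower was near that of all genes. Gata3, the lineage factor of ILC2, had 734 CPM (623 to 859) in cluster 16, against 488 CPM in cluster 11 and a median of 24.6 CPM over the other clusters. Rora, which ILC2 need to develop, had 903 CPM in cluster 16, against 536 CPM in cluster 11. Lmo4, a LIM-domain cofactor, had 1703 CPM and 888 CPM in clusters 16 and 11. Id2, which innate lymphoid cells need, had 903 CPM (780.2 to 1041) in cluster 16, against 996 CPM in cluster 11. Foxp3 and Bhlhe41 had no UMI in cluster 16, Tbx21 had 1 and Eomes 2. The lineage factors among these are those of regulatory T cells (Foxp3) and type 1 lymphocytes and NK cells (Tbx21, Eomes). Klf2, which drives exit from tissue, had 174 CPM (123 to 240.0) in cluster 16, against 351 CPM in cluster 11 and a mean of 675 CPM over the other clusters.

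**Figure D2:**
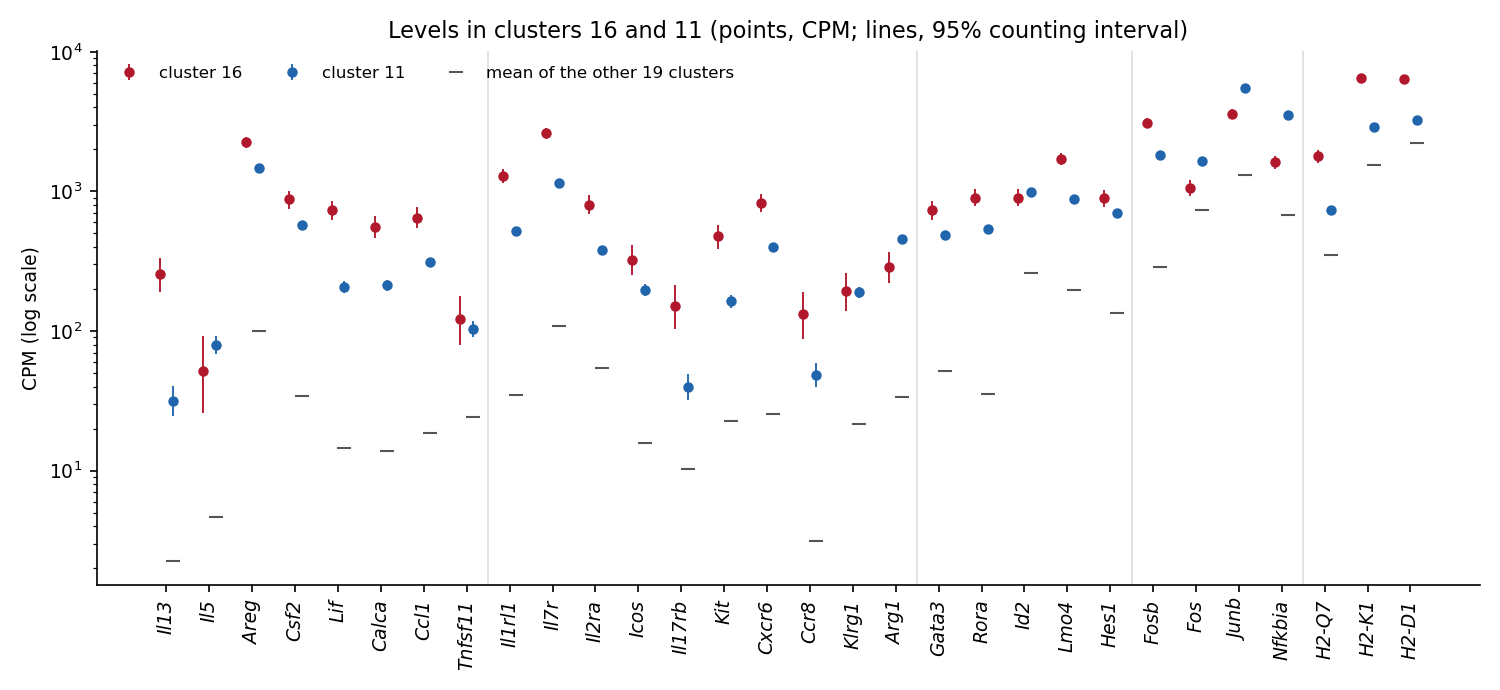
CPM on a log scale of 30 genes in clusters 16 (red) and 11 (blue), with exact 95% counting intervals, and the mean CPM of the other 19 clusters (dashes); vertical lines separate secreted signals, receptors and Arg1, transcription factors, stimulation genes and MHC class I genes. Il13 and Lif lie well above cluster 11 in cluster 16, Il5 does not, and Fos, Junb and Nfkbia lie below it.

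Genes of recent stimulation did not stand in the same order in clusters 16 and 11. Of 41 AP-1 and immediate early genes 39 passed. Of these, 23 were over 2-fold higher and 4 over 2-fold lower than in the other clusters, against 13.8% and 26.4% of all genes. Against cluster 11, 4 were over 2-fold higher, where 25.5% of all 8305 genes were, and 6 over 2-fold lower, where 16.3% of all genes were. The median log2 ratio to cluster 11 was -0.037 over the 39 genes and 0.30 over all genes, and -0.30 and 0.07 when mitochondrially encoded and ribosomal protein genes were left out of the totals. Relative to all genes the list was thus lower than in cluster 11 under both scalings, while its median against the other clusters was 1.25. Fosb, Fosl2 and Nr4a3 were higher in cluster 16, with 3082, 701 and 306 CPM, than in cluster 11, with 1811, 355 and 134 CPM. Fos had 1063 CPM in cluster 16, against 1657 CPM in cluster 11, Jun had 814 and 1323 CPM, and Junb had 3595 and 5540 CPM. Each of these 6 ratios to cluster 11 had an interval on 1 side of 1. Nfkbia, the NF-kB inhibitor that is induced by NF-kB itself, had 1619 CPM (1452 to 1799) in cluster 16, against 3543 CPM in cluster 11, a ratio of 0.457 (0.409 to 0.509). Nfkb1 went the other way, with 1199.9 CPM (1057 to 1357) in cluster 16, against 553 CPM in cluster 11. Of 20 NF-kB pathway genes, 9 were over 2-fold higher in cluster 16 than in the other clusters (13.8% of all genes) and none over 2-fold lower (26.4% of all genes).

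Class I antigen presentation genes were led by the classical genes. H2-K1 had 6461 CPM (6123 to 6812) in cluster 16, against 2909 CPM in cluster 11 and a mean of 1539.97 CPM over the other clusters. H2-D1 had 6428 CPM in cluster 16, 3239 CPM in cluster 11 and a mean of 2221 CPM over the others, and B2m, their shared light chain, had 3957 CPM in cluster 16 and a mean of 1478 CPM over the others. H2-Q7, H2-Q6 and H2-Q4 had 1779, 654 and 626 CPM, against means of 349, 127 and 168 CPM over the other clusters. H2-Q6 and H2-Q4 share 10.9% and 9.49% of the 90-base stretches at their 3' ends with other annotated genes. How far this affects their counts was not tested. All 6 of these genes were highest in cluster 16, as were 464 of the 1776 genes with at least 20 UMIs there. Of 20 members that passed, 8 were over 2-fold higher and 5 over 2-fold lower in cluster 16, against 13.8% and 26.4% of all genes, so the share that was lower was near that of all genes. The lower ones included the immunoproteasome genes Psmb8, with 207 CPM in cluster 16 and a mean of 487 CPM over the others, and Psmb9, with 51.8 CPM in cluster 16 and a mean of 189 CPM.

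The composition of the RNA set cluster 16 apart from most clusters, but not from clusters 2, 5 and 14. Mitochondrially encoded genes made up 8.42% of its UMIs and ribosomal protein genes 10.7%. In clusters 2, 5 and 14 the mitochondrial shares were 10.1%, 7.24% and 11.2%, and the ribosomal shares 10.8%, 9.90% and 9.65%. Outside clusters 2, 5, 14 and 16, the mitochondrial share was at most 4.29% and the ribosomal share at least 14.9%. Against cluster 11, cluster 16 held 0.287 times the UMIs per cell, 1897 against 6623. Mitochondrial UMIs did not share in that difference: there were 160 per cell in cluster 16 and 168 per cell in cluster 11, a ratio of 0.952 (0.936 to 0.968). The nuclear long noncoding RNAs Malat1 and Xist had 138 and 7.96 UMIs per cell in cluster 16 and 153 and 8.53 in cluster 11, ratios of 0.903 and 0.933. Ribosomal protein genes had 203 UMIs per cell in cluster 16 and 1986 in cluster 11, a ratio of 0.102 (0.101 to 0.104). The cytoskeletal genes Actb and Tmsb4x had ratios of 0.141 and 0.0927. Fewer transcripts per cell and fewer captured per cell cannot be told apart in these sums.

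Counted per cell rather than as CPM, the ILC2 genes varied widely. Il13 had 0.482 UMIs per cell in cluster 16 and 0.210 in cluster 11, a ratio of 2.29 (1.58 to 3.32), so it was higher in cluster 16 even in absolute UMIs. Lif was level, with 1.39 UMIs per cell in cluster 16 and 1.37 in cluster 11. Il1rl1 had 2.46 UMIs per cell in cluster 16 and 3.45 in cluster 11, a ratio of 0.712 (0.622 to 0.813), and Il7r had a ratio of 0.643. Areg and Gata3 had ratios of 0.441 and 0.431, Fosb 0.488, Junb 0.186 and Nfkbia 0.131. Of the 8305 genes, 479 (5.77%) had more UMIs per cell in cluster 16 than in cluster 11, and 119 (1.43%) had over 2 times as many. For most genes, higher in cluster 16 than in cluster 11 therefore means a larger share of fewer UMIs, and Il13 is among the exceptions.

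**Figure D3:**
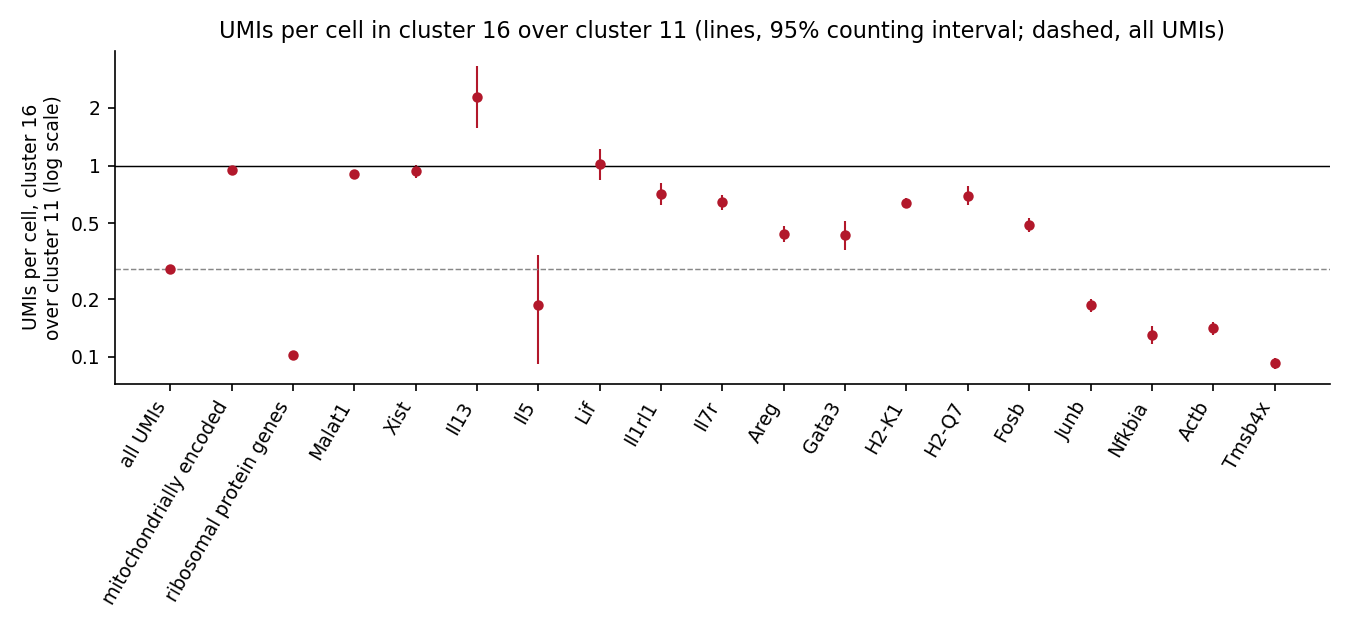
UMIs per cell in cluster 16 over cluster 11 on a log scale for all UMIs, gene classes and named genes, with exact 95% counting intervals; the dashed line is the ratio of all UMIs, 0.287. Mitochondrial UMIs (0.952) and Malat1 (0.903) lie near 1, ribosomal protein genes (0.102) near the bottom, and Il13 (2.29) above 1.

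Part of the difference between clusters 16 and 11 recurred in other cell types. Clusters 2 and 1 were both deposited as B cells and clusters 5 and 9 as T cells, and in each pair the first had fewer UMIs per cell, 2296 against 5925 and 1278 against 3467. Over the 2001 genes with a mean of at least 50 CPM in each of the 3 pairs, the log2 ratio of cluster 16 to cluster 11 had a Pearson correlation of 0.857 with that of cluster 2 to cluster 1 and of 0.837 with that of cluster 5 to cluster 9. The Spearman correlations were 0.861 and 0.844. The pairs share no cells, but they share the 2 libraries, the low depth of 1 member and the base composition of each gene. Of 464 genes over 2-fold higher in cluster 16 than in cluster 11 (23.2% of the 2001), 233 were over 2-fold higher in cluster 2 than in cluster 1, which is 50.2% of the 464 and 68.9% of the 338 in the B cell pair (16.9% of the 2001). Of 349 genes over 2-fold lower in cluster 16 than in cluster 11 (17.4%), 205 were over 2-fold lower in cluster 2 than in cluster 1, which is 58.7% of the 349 and 77.7% of the 264 in the B cell pair (13.2%). Between clusters 5 and 9, 6.1% of the genes were over 2-fold higher in cluster 5, and 99 of these 122 were among the 464, which is 81.1% of the 122 but 21.3% of the 464. Of the 261 genes over 2-fold lower in cluster 5 (13%), 170 were among the 349, which is 65.1% of the 261 and 48.7% of the 349. H2-K1, Malat1, Dgat1 and Bcl2 were over 2-fold higher in cluster 16 than in cluster 11 and in cluster 2 than in cluster 1. H2-K1 had ratios of 2.22, 2.30 and 2.64 in the 16 to 11, 2 to 1 and 5 to 9 pairs, H2-Q7 of 2.43, 2.11 and 3.56, and Fosb of 1.70, 1.96 and 2.54.

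Genes much higher in cluster 16 than in cluster 11 were also read in the other pairs. Of the 1776 genes with at least 20 UMIs, 196 (11%) had a ratio to cluster 11 with an interval above 2. Of the 196, 63 were over 2-fold higher in both other pairs and 49 were under 2-fold in both. The matching shares over all 1776 genes were not computed, for these counts or for the ratios above 1 given next. The counts therefore describe these genes and do not set them apart from other genes. In 44 of the 49 a cluster of each other pair also held at least 20 UMIs. All 44 had ratios above 1 in both other pairs, with medians of 1.82 and 1.63, so they fell short of 2-fold there without moving the other way. Among them were Ptprc, which encodes CD45, and the class II gene H2-Ab1. Stab2, a scavenger receptor, Calca and the T cell receptor delta segment Trdv4 were among the other 5, which had too few UMIs there for their ratios to be read. Ptprc had 1562 CPM (1399 to 1739.7) in cluster 16, against 521 CPM in cluster 11, and H2-Ab1 had 480.0 CPM (391 to 583) in cluster 16, against 159 CPM in cluster 11. The ratios of Ptprc in the 16 to 11, 2 to 1 and 5 to 9 pairs were 3.001, 1.95 and 1.90, and those of H2-Ab1 were 3.02, 1.62 and 1.99. Whether the ratios differ between pairs was not tested. Il13 and Il5 had no UMI in clusters 2, 5 and 9, and had 6 and 1 UMIs in cluster 1. Their ratios were thus 0 in the 2 to 1 pair, on few UMIs, and undefined in the 5 to 9 pair. Nfkbia, low in cluster 16 relative to cluster 11, had ratios of 0.797 and 1.002 in the other pairs, and Junb, at 0.649 in the first pair, had 1.03 and 0.697.

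**Figure D4:**
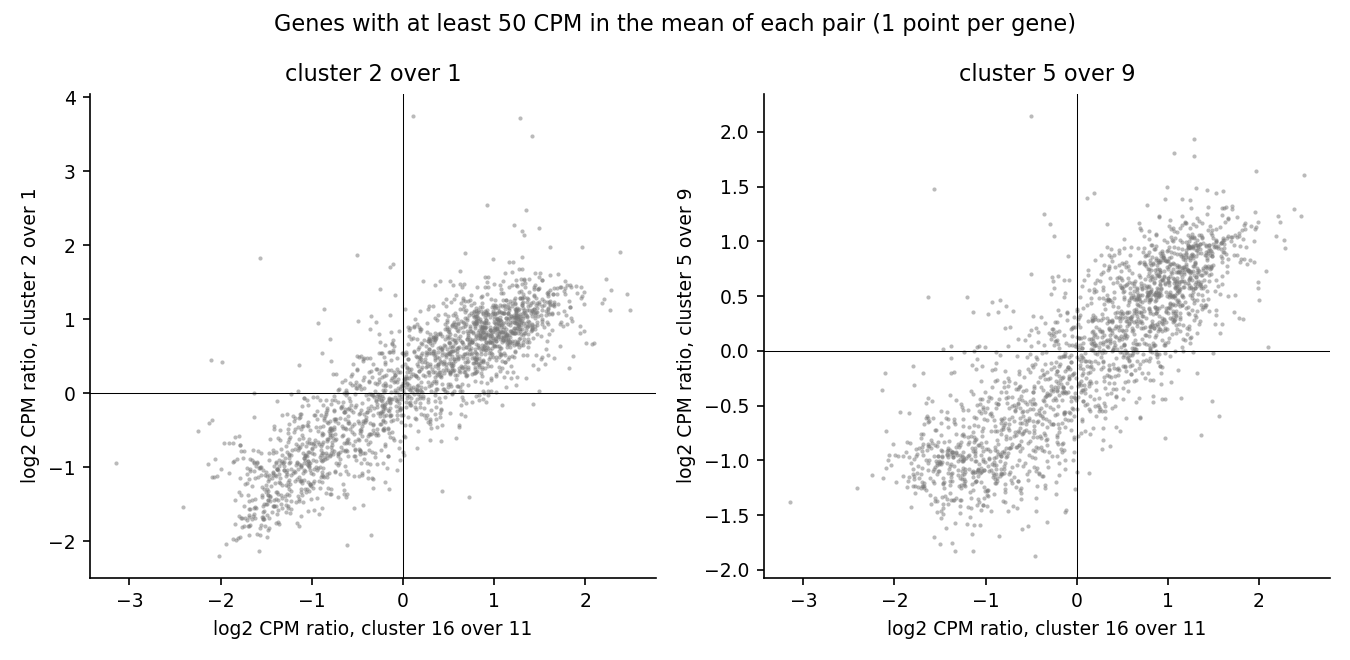
Log2 CPM ratio of cluster 16 to cluster 11 (horizontal) against that of cluster 2 to cluster 1 (left) and of cluster 5 to cluster 9 (right), 1 point for each of 2001 genes. The points lie along a rising band in both panels, with Pearson correlations of 0.857 and 0.837.

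Gene length moved with the same difference. With 8140 genes split into 5 equal bins by genomic span, the median log2 ratio of cluster 16 to cluster 11 was -0.16, 0.05, 0.20, 0.52 and 0.76 from the shortest bin (median span 4.82 kb) to the longest (107 kb). The medians ran from 0.03 to 0.65 for cluster 2 over cluster 1 and from -0.19 to 0.41 for cluster 5 over cluster 9. The median was thus higher in each longer bin in all 3 pairs.

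Besides the ILC2 markers, 2 of the other 15 marker lists had their highest summed level in cluster 16. The markers of type 3 innate lymphoid and gamma delta T17 cells summed to 2452 CPM in cluster 16, against 1582 CPM in cluster 11 and a median of 319 CPM over the other clusters. Tmem176a and Tmem176b, membrane proteins that other leukocytes also make, gave 1242 and 1054 CPM of that sum, and 6 members, among them Il17a, Il17f and Il22, were at 0. The regulatory T cell markers summed to 1223 CPM in cluster 16, against 1055 CPM in cluster 13, the next highest, and a median of 308 CPM over the other clusters. Il2ra and Ikzf2, which are also on the lists of ILC2 receptors and transcription factors, gave 805 and 231 CPM of it, and Foxp3 was at 0.

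Among the markers of NK cells, Gzma had the most UMIs in cluster 16. Of 13 NK and type 1 lymphocyte markers Klra4, Klra7 and Klra8, receptors of the Ly49 family, were at 0 in cluster 16, each with at least 392 CPM in cluster 3, where NK cell genes were highest. Of the 12 markers that passed, none was over 2-fold higher and 7 were over 2-fold lower than in the other clusters. The shares over all genes were 13.8% and 26.4%. Against cluster 11, 9 were over 2-fold higher and 1 over 2-fold lower, where 25.5% and 16.3% of all genes were. Gzma, the protease granzyme A, had 173 UMIs and 814 CPM (697 to 945) in cluster 16, against 6.80 CPM in cluster 11, 13011 CPM in cluster 3 and a median of 168 CPM over the other clusters. Gzma was also higher in cluster 14, with 1172 CPM, than in cluster 16, and cluster 6 had 569 CPM. Gzmb, granzyme B, had 84.7 CPM in cluster 16 and 1828 CPM in cluster 3. The ratio of Gzma to Ccl5 UMIs was 3.53 (2.56 to 4.95) in cluster 16 and 0.718 in cluster 3, and that of Gzma to Prf1 UMIs was 28.8 (12.98 to 79.7) in cluster 16 and 10.5 in cluster 3. The ratio of Gzma to Nkg7 UMIs was 5.09 (3.51 to 7.58) in cluster 16 and 3.52 (3.45 to 3.59) in cluster 3, where the intervals overlapped. Over the whole marker list, 1186 CPM summed in cluster 16, against 85.2 CPM in cluster 11, 24535 CPM in cluster 3, 1239 CPM in cluster 14 and a median of 389 CPM over the others. The part of cluster 3 RNA in these values was not tested.

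T lineage transcripts were present, far below their level in cluster 5. Cd3e, Cd3d and Cd3g, chains of CD3, had 14, 20 and 55 UMIs in cluster 16 and 65.9, 94.1 and 259 CPM, against 1331, 1856 and 1819 CPM in cluster 5. The summed level of the 12 T cell markers was 1661 CPM in cluster 16, 1303 CPM in cluster 11 and 19322 CPM in the highest cluster. A wider list of 22 T cell receptor and CD3 genes summed to 3407 CPM in cluster 16 and 2343 CPM in cluster 11. Its median over the other clusters was 2561 CPM, and its highest level 22793 CPM in cluster 5. Of the 22, 2 were over 2-fold higher and 14 over 2-fold lower than in the other clusters (13.8% and 26.4% of all genes). Against cluster 11, 8 were higher and 5 lower (25.5% and 16.3%). Of the 13 basophil and mast cell markers 9 were at 0, among them Mcpt8, Prss34, Gata2 and Tpsab1, but Hdc, which makes histamine, had 29 UMIs and 136 CPM (91.4 to 196) in cluster 16, against 13.1 CPM in cluster 11 and 689 CPM in cluster 7, where neutrophil genes were highest. The basophil and mast cell list summed to 202 CPM in cluster 16, against a median of 41.8 CPM over the other clusters. Of 8 eosinophil markers 7 were at 0, and the list summed to 4.71 CPM, against a median of 26.7 CPM over the other clusters. Zeros were common at this depth: of 19560 genes with a UMI in any cluster, 10356 had one in cluster 16. Mgp, an inhibitor of calcification made by vessel wall cells, had 47 UMIs and 221 CPM (162 to 294) in cluster 16, against 10.9 CPM in cluster 11 and 182 CPM in cluster 0. Of the 13 vessel wall markers 6 were at 0, and the defining members Acta2 and Tagln had 1 and 2 UMIs. The vessel wall list summed to 26 UMIs or 122 CPM, against 23.6 CPM in cluster 11 and a median of 84.1 CPM over the other clusters. Beside Mgp and Hdc, the genes with the largest ratio to the mean of clusters 3 and 11 included Il13, Stab2, Il17rb, Lif, Hk2, Igf1r and Olfr1259.

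Among genes with a mean of at least 200 CPM over the other clusters, the 10 with the lowest ratios were mostly myeloid. Camp and Gngt2 had no UMI, and Slpi, Ngp, Spp1, Wfdc17, Fn1, S100a9 and Iglc1 had between 1 and 32 UMIs. Iglc1 encodes an antibody light chain. Lyz2, lysozyme, had 184 CPM (131 to 251) in cluster 16 and a mean of 3576 CPM over the other clusters. Other lists held few genes that were higher, read against 13.8% higher and 26.4% lower over all genes. Of 21 replication and mitosis genes none was over 2-fold higher than in the other clusters and 13 were over 2-fold lower, with Mki67 at 4 UMIs, and of 24 type I interferon response genes that passed none was over 2-fold higher and 11 over 2-fold lower. Of 18 lipid uptake and use genes that passed 3 were over 2-fold higher, near the share of all genes, and 9 lower. Dgat1, which makes triglyceride, was the highest of them with 1031 CPM (898.5 to 1176) in cluster 16, against 259 CPM in cluster 11 and a mean of 65.3 CPM over the others. Alox5, which starts leukotriene synthesis, had 165 CPM (115 to 229) in cluster 16, against 64.8 CPM in cluster 11.

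As a share of its library, cluster 16 held 1.56% of nt-LNA cells (1.23 to 1.95) and 1.31% of saline cells (0.921 to 1.81), a ratio of 1.19 (0.789 to 1.82). The interval held 1, and with 1 library per treatment no test between treatments was possible. Within clusters 11 and 16 together, cluster 16 held 24.1% of the nt-LNA cells (19.5 to 29.2) and 27.7% of the saline cells (20.2 to 36.2), a ratio of 0.871 (0.579 to 1.33). For the low-UMI members of the other pairs, cluster 2 held 57.8% of the nt-LNA and 31.0% of the saline cells of clusters 1 and 2, a ratio of 1.87 (1.56 to 2.25), and cluster 5 held 67.5% and 50.2% of clusters 5 and 9, a ratio of 1.34 (1.10 to 1.65). These intervals cover the counting of cells alone, so they do not show whether treatments or clusters differ. Cluster 11 itself held 4.91% of nt-LNA cells (4.32 to 5.55) and 3.43% of saline cells (2.78 to 4.18), a ratio of 1.43 (1.12 to 1.84).

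**Figure D5:**
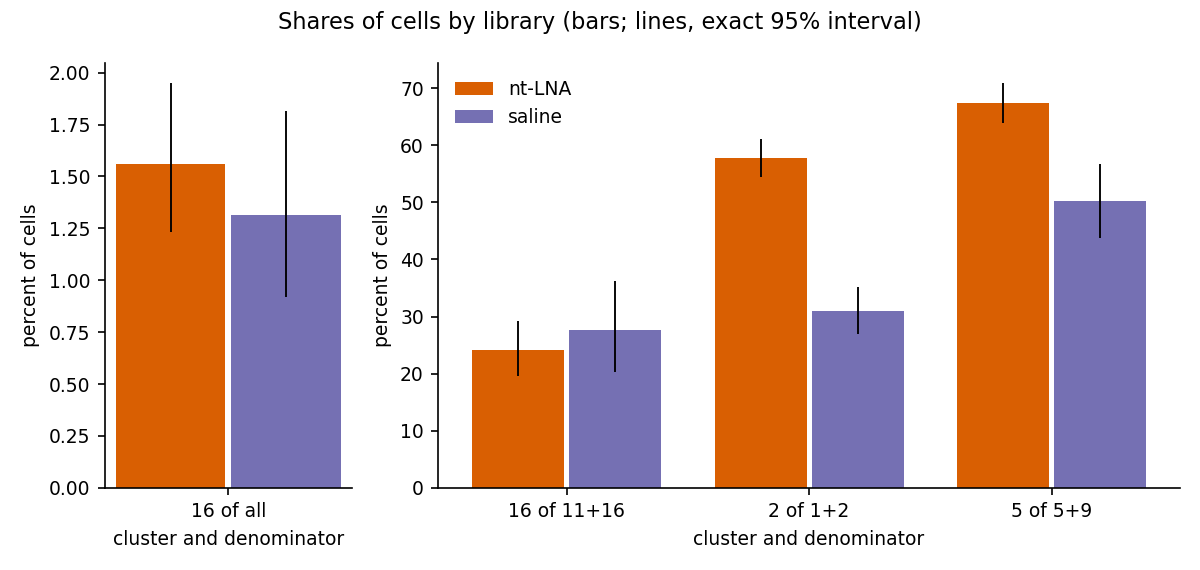
Percent of cells in the nt-LNA (orange) and saline (purple) library that fell in cluster 16 among all cells (left) and in the low-UMI member of each pair of clusters (right); bars are shares and lines exact 95% intervals. Cluster 16 made up 24.1% of nt-LNA and 27.7% of saline cells of clusters 11 and 16, and cluster 2 made up 57.8% of nt-LNA and 31.0% of saline cells of clusters 1 and 2.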

How the data were processed

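Leukocytes were profiled by droplet-based 3' RNA sequencing (10x Chromium), with 1 library from nt-LNA and 1 from saline mice, so there are no replicates. Per the submitters' processing notes, Cell Ranger 2.1.1, Seurat and the build mm9 were used; filters on cells, clustering settings and doublet removal are not given in these sources, and no doublet caller was run. The deposited counts are whole-number UMIs of each gene, added up within each of 20 clusters over cells of both libraries together. The authors' table of cells gives each cell's cluster and cell type name, and its barcode prefix was matched to the library. A deposited normalized table was not used.

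CPM were computed from these counts. A gene passed the filter with a mean of at least 10 CPM over the 20 clusters (8305 of 31053 genes). Ratios are to the mean CPM of the other 19 clusters unless cluster 11 is named, medians of log2 ratios add 1 CPM, and over 2-fold refers to CPM without it. Intervals are exact 95% Poisson (CPM), Clopper-Pearson (shares) and conditional (ratios) intervals, and a gene at 0 UMIs was set to 3 counts for a bound. Symbols were matched to GENCODE M21 (30464, 98.1%) for gene spans and transcript ends, and promoter windows were read from a RefSeq table of GRCm38.p6, whose coordinates are its own.

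The members and gene lists were chosen with earlier results of these data known. Genes were named by rank of ratio, UMIs or list membership. Some genes that this rule names are not reported here. Acta2, Actb, Cd3d, Cd3e, Fos, Fosl2, H2-Q4, Jun, Ltb4r1, Prf1, Psmb8, Psmb9, Ptprc, Tagln, Tmsb4x and Xist fell outside that rule and were chosen after their values were seen, as were cluster 11 alone as the reference, the pairs of clusters, the gene pairs, the bins by gene span and the UMIs per cell. The alternatives were other references, totals, filters, pseudocounts and denominators. The calculations ran in scipy 1.17.1, numpy 2.4.6 and pandas 2.3.3 under Python 3.11.15, with figures by matplotlib 3.10.9, and were tested on simulated data.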

Additional observations from a re-analysis of the deposited data

How the results depend on the processing

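The 1150 genes over 2-fold higher and 2196 over 2-fold lower than in the other clusters stayed within 1.5 times of these counts against clusters 2, 5 and 14, against pooled UMIs, without mitochondrially encoded and ribosomal protein genes in the totals, and with the filter on the other clusters alone. They moved to 1844 higher against clusters 3 and 11, to 2120 and 1355 against cluster 11, to 388 and 830 with a filter of 50 CPM, and to 2524 and 11052 with none; more or fewer genes enter the last 2 by construction. With the counting interval also past 2-fold, 435 were higher and 287 lower, so the balance turned to more higher than lower. The median log2 ratio of the ILC2 markers, 3.78, was 1.84 against clusters 3 and 11, 6.54 against clusters 2, 5 and 14 and 0.86 against cluster 11. The AP-1 median turned to -0.037 against cluster 11. The share ratio of 1.19 turned to 0.721 among cells deposited as T cells, with an interval of 0.479 to 1.10, and the cause was not tested.

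Among the named genes whose counting interval lay past 2-fold of the other clusters, the log2 ratio turned sign against clusters 3 and 11 for Cd3d (0.18), Cd3e (0.80), Fn1 (1.36), H2-Ab1 (1.11), Id2 (-0.085), Junb (-0.029), Lyz2 (0.47), Nfkbia (-0.28), Ngp (0.93), S100a9 (1.66) and Slpi (0.89), and against clusters 2, 5 and 14 for Ccl5 (1.25), S100a9 (0.11), Tmsb4x (0.49) and Xist (-0.26). Of the other named genes, it turned sign against clusters 3 and 11 for Acta2 (1.25), Cd3g (0.95), Il4 (-0.84) and S1pr1 (0.52), and against clusters 2, 5 and 14 for Acta2 (0.30), Eomes (1.83), Gzma (0.83), Ikzf2 (-0.018), Malat1 (-0.19), Nkg7 (2.69), Prf1 (2.02), Ptprc (-0.0068) and Tbx21 (1.06). No named gene but Tagln (-0.013) turned sign without mitochondrially encoded and ribosomal protein genes in the totals. No paired analysis was possible because there is 1 library per treatment and the counts pool both. The 212515 UMIs of cluster 16 limit statements on genes under about 20 UMIs, and intervals do not cover differences between animals.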
